A study of Homo sapiens with 12 samples.

Results

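Small nucleolar RNAs (snoRNAs) are short RNAs that guide the chemical modification of ribosomal RNA, and most human snoRNAs are cut out of the introns of longer host genes. The hosts described here are 10 noncoding genes, GAS5, SNHG1, ZFAS1, SNHG5, SNHG6, SNHG16, SNHG12, EPB41L4A-AS1, SNHG8 and SNHG15, among 53717 rows of the count table. They were chosen as noncoding hosts whose spliced RNA is known to be degraded by nonsense-mediated decay, and because they rose together in these same libraries. Their values with the LINE1 antisense oligo are therefore a description and carry no test. All 10 passed the filter on low counts, which left 17264 genes. GAS5 and SNHG12 lie on chromosome 1, and each of the other 8 on a chromosome of its own. GENCODE release 29 gives them several exons and from 4 (EPB41L4A-AS1) to 29 (GAS5) transcripts, and counts are per gene, so isoforms are not separated here.

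The libraries were made from H9, a long-established line of human embryonic stem cells, kept in RSeT medium, which is sold for naive-like growth. Every group was lipofected with an oligonucleotide at 25 nM in the presence of 0.7 uM trans-ISRIB, which relieves the translational block of the integrated stress response, 5 uM of the caspase inhibitor emricasan and 10 uM of the ROCK inhibitor Y-27632. These 3 compounds were withdrawn after 24 h, and transfected cells were sorted at 48 h. The groups were ASO-Ctr, a control antisense oligo, sO-L1, the sense oligo of LINE1, and ASO-L1, the antisense oligo to LINE1, a retrotransposon family whose own RNA is not analysed here. Each had 4 libraries, numbered 1 to 4. The labels name 1 cell line and do not say whether the replicates were separate cultures, so p-values measure the spread between these libraries, which may be technical.

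When the introns of a host are removed, its snoRNAs are trimmed from them and assembled with proteins, while the spliced exons form an RNA with short reading frames. That spliced RNA is translated briefly and is then degraded by nonsense-mediated decay, the pathway that destroys RNAs with an early stop codon. Many hosts also start transcription at a run of pyrimidines, as the mRNAs of ribosomal proteins do, and such transcripts are held back from translation when growth signals fall. GAS5 was named for its accumulation in growth-arrested cells.

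Start sites of 8 of the 10 hosts were read from the RefSeq promoter table (GRCh38.p14). Of these, 6 are shown because some hosts share sequence at the start that the choice of genes did not use. Each stretch has 80 bases in the direction of transcription, 40 before the annotated start and 40 from it on. Capitals mark the letters TATAA ahead of the start and the pyrimidine run that holds the letters CTTT. The SNHG5, SNHG12, SNHG1 and GAS5 stretches are on the minus strand and the ZFAS1 and SNHG8 stretches on the plus strand.
ZFAS1, chr20:49278602-49278681: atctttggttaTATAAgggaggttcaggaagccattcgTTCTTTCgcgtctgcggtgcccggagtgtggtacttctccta
SNHG5, chr6:85678694-85678773: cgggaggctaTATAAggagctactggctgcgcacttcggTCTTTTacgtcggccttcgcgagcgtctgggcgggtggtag
SNHG8, chr4:118278722-118278801: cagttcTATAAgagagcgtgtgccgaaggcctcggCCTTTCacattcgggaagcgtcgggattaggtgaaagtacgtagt
SNHG12, chr1:28581834-28581913: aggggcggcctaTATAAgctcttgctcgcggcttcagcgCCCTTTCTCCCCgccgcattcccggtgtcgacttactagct
GAS5, chr1:173869006-173869085: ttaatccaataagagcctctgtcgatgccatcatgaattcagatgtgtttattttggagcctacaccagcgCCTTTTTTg
SNHG1, chr11:62855846-62855925: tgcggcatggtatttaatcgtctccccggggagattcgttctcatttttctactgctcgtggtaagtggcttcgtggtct

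TATAA, searched on the transcribed strand from 60 to 15 bases before the start, was found in 4 of 8 hosts (ZFAS1, SNHG5, SNHG8 and SNHG12), beside 4.72% of 35116 promoters in the table. CTTT, searched on the same strand from 20 bases before the start to 40 after it, was found in 7 of 8 hosts, all but SNHG1, beside 21.2% of those promoters. In ZFAS1, SNHG5, SNHG8 and SNHG12 the run lies at the start site itself. In the other 3 hosts with CTTT it begins downstream of the annotated start, at an offset of 5 bases in SNHG16, 31 in EPB41L4A-AS1 and 32 in GAS5. The count of 7 is therefore not a count of hosts with the run at the start. Both motifs were chosen after these sequences were seen. Over the whole window from 250 bases before to 50 after the start, on both strands, TGATGNAA, the core of the C/EBP-ATF response element bound by ATF4 in the integrated stress response, was found in 0 of 8 hosts and in 3.62% of promoters. The E-box CACGTG was likewise found in 0 of 8 and in 7.26% of promoters. At such low shares 0 of 8 is the likely outcome for any 8 promoters, so nothing is read from these 2 searches.

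Reads counted in genes came to between 22830894 and 55056032 per library, and 3 reads corresponded to 0.0534 to 0.128 CPM (the counts-per-million scale, with TMM factors). Reads carried no molecular identifiers, so such floors cover counting error only. The mitochondrially encoded share lay between 5.59% and 6.48%. Of the pluripotency markers, POU5F1 was at 1081 to 1305 CPM and SOX2 at 393 to 472 CPM across the libraries, while KLF17, a marker of the naive state, reached at most 0.491 CPM. Of the 7 pluripotency markers, 1 was called higher against ASO-Ctr (DPPA4, 1245 ± 31.7 to 1417 ± 72.6 CPM) and 2 lower (LIN28A, 2032 ± 81.8 to 1743 ± 91.9 CPM, and L1TD1, 1720.1 ± 29.98 to 1607 ± 36.8 CPM). Against sO-L1 the same 3 were called in the same directions, and SOX2 was also called lower. Of 4 fibroblast markers tested 0 were called higher and 2 lower in ASO-L1 (COL1A2, 61.3 ± 8.71 to 36.6 ± 4.65 CPM, and PDGFRA, 15.3 ± 0.562 to 8.19 ± 0.774 CPM), and LUM had 0 reads in every library. The fibroblast list summed to 52.2 to 67.7 CPM in ASO-L1, 78.2 to 101 CPM in ASO-Ctr and 76.4 to 101 CPM in sO-L1. The endoderm list, which also holds PDGFRA, summed to 10.2 to 11.9 CPM in ASO-L1, 16.1 to 18.7 CPM in ASO-Ctr and 17.98 to 21.1 CPM in sO-L1. PDGFRA made up most of these sums. Of 3 endoderm markers tested, 1 was called higher and 1, PDGFRA, lower in ASO-L1 against each other group. Markers of the primed state moved with the groups: 4 of 4 tested (ZIC2, DUSP6, SFRP2 and THY1) were called higher in ASO-L1, with a summed level of 209.6 to 239 CPM, beside 144 to 179 CPM in ASO-Ctr and 123 to 154 CPM in sO-L1. Of 5 naive markers tested 3 were called higher and 1 lower, with sums of 73.2 to 107 CPM in ASO-L1, 49.1 to 61.5 CPM in ASO-Ctr and 51.2 to 64.9 CPM in sO-L1. From ASO-Ctr to ASO-L1, KLF4 went from 20.1 ± 3.04 to 47.5 ± 8.88 CPM and DPPA5 from 7.42 ± 3.19 to 3.43 ± 0.523 CPM. Neuroectoderm markers summed to 589.9 to 659 CPM in ASO-L1, mostly NES, against 448 to 509 CPM and 478 to 584 CPM, with 2 of 3 called higher, while SOX1 and ZIC1 were near 0. Of 2 trophectoderm markers tested, 1 was called higher in ASO-L1 against each other group. Over all genes 21.2% were called higher and 23.1% lower against ASO-Ctr, and 21.1% and 22.9% against sO-L1. Each marker list is short, so its counts are given beside these shares and read no further. The part of these markers in the results on host genes was not tested.

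**Figure D1:**
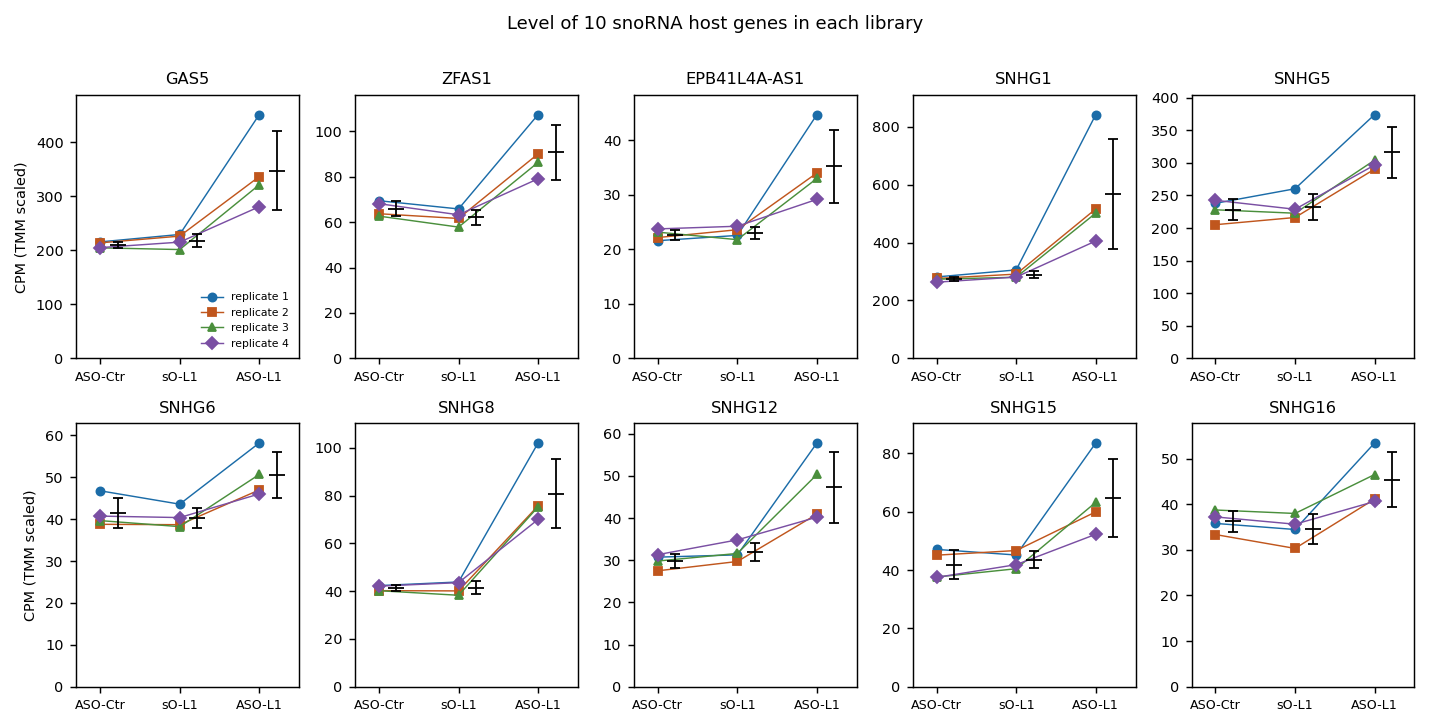
Level of the 10 host genes in CPM (TMM scaled, linear axis from 0) in each library by oligo group. Coloured lines join libraries of the same replicate number, and black bars give the mean ± SD of 4 libraries. ASO-L1 replicate 1 was the highest library of all 12 in every panel.

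The 10 hosts together took 0.0990% ± 0.00418 (SD, n = 4) of reads in ASO-Ctr, 0.102% ± 0.00524 in sO-L1 and 0.165% ± 0.0385 in ASO-L1. In bulk RNA, fewer cells of a type and less RNA per cell cannot be told apart. With ASO-L1, the fitted fold against ASO-Ctr ran from 1.21 for SNHG6 to 2.01 for SNHG1, with a median log2 fold change of 0.62, beside -0.0028 over all genes tested. Against sO-L1 the median was 0.56, from 0.32 for SNHG6 to 0.95 for SNHG8, beside -0.0032 over all genes. All 10 were called higher by edgeR's quasi-likelihood test (adjusted p under 0.05) in both comparisons, where 44.3% and 44% of all genes were called in either direction and 21.2% and 21.1% were called higher. Since the genes were chosen for this rise, nothing is read from that count. The ranges of ASO-L1 and ASO-Ctr did not overlap for 9 of the 10 (16.3% of all genes lay apart and higher), and those of ASO-L1 and sO-L1 for all 10 (16% of all genes).

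Of the 10 hosts, 6 carry mainly box C/D snoRNAs, which guide the methylation of ribose. SNHG1, which carries SNORD22 and SNORD25 to SNORD31, had 281, 276, 273 and 263 CPM in ASO-Ctr replicates 1 to 4, 306, 291, 280.2 and 281 CPM in sO-L1 and 842, 516, 502 and 405 CPM in ASO-L1. Every ASO-L1 library was above every other library, and replicate 1 stood well above the remaining 3. The differences in log2 CPM between ASO-L1 and ASO-Ctr of the same number were 1.58, 0.90, 0.88 and 0.62, a mean of 0.996 ± 0.41 (SD, n = 4), and those against sO-L1 averaged 0.91 ± 0.39.

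GAS5, whose spliced RNA is a long-studied target of decay, had 215, 214, 204 and 205 CPM in ASO-Ctr, 229, 226, 201 and 215 CPM in sO-L1 and 451, 336, 321 and 280.4 CPM in ASO-L1. Its ASO-L1 libraries were all above the others, with replicate 1 highest and replicate 4 lowest. Within a replicate number the log2 difference from ASO-Ctr was 1.07, 0.65, 0.65 and 0.45, with a fitted log2 fold change of 0.71 (SE 0.072), and against sO-L1 the fit gave 0.66 (SE 0.072).

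ZFAS1 is transcribed away from the promoter region of ZNFX1 and carries SNORD12, SNORD12B and SNORD12C. It was at 69.4, 63.7, 62.7 and 68.1 CPM in ASO-Ctr, 65.8, 61.6, 57.8 and 63.2 CPM in sO-L1 and 107, 90.1, 86.3 and 79.1 CPM in ASO-L1. The ASO-L1 range lay above both other ranges, and sO-L1 was below ASO-Ctr in all 4 replicate numbers. The differences from ASO-Ctr averaged 0.45 ± 0.17 in log2 CPM and those from sO-L1 averaged 0.54 ± 0.16.

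SNHG5, the host of SNORD50A and SNORD50B, had 238, 205, 228 and 243 CPM in ASO-Ctr, 260.2, 216, 223 and 229 CPM in sO-L1 and 374, 290.4, 304 and 297 CPM in ASO-L1. In ASO-L1, replicates 2 to 4 lay close together and replicate 1 apart from them. Against sO-L1 the 4 differences of SNHG5 were 0.52, 0.43, 0.45 and 0.37, with an SD of 0.062, the smallest SD among the 10 hosts in that comparison.

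SNHG16, with SNORD1A, SNORD1B and SNORD1C, had 35.8, 33.3, 38.7 and 37.2 CPM in ASO-Ctr, 34.5, 30.3, 37.97 and 35.6 CPM in sO-L1 and 53.4, 41.1, 46.5 and 40.6 CPM in ASO-L1. The lowest ASO-L1 library was only slightly above the highest ASO-Ctr library. SNHG6, the host of SNORD87, showed the smallest difference: 46.8, 38.8, 39.7 and 40.7 CPM in ASO-Ctr, 43.6, 38.7, 38.2 and 40.4 CPM in sO-L1 and 58.2, 46.99, 50.7 and 46.04 CPM in ASO-L1. ASO-L1 replicate 4 was below ASO-Ctr replicate 1, so these ranges overlapped, although within each replicate number ASO-L1 was higher, by 0.31, 0.28, 0.35 and 0.18 in log2 CPM.

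SNHG12 holds both a box C/D snoRNA, SNORD99, and the box H/ACA snoRNAs SNORA16A, SNORA44 and SNORA61, a class that guides the conversion of uridine to pseudouridine. Its levels were 30.7, 27.5, 29.8 and 31.3 CPM in ASO-Ctr, 31.3, 29.7, 31.6 and 34.8 CPM in sO-L1 and 57.8, 40.9, 50.3 and 40.2 CPM in ASO-L1. Replicates 1 and 3 of ASO-L1 were the high pair, and replicates 2 and 4 lay close to each other.

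The other three hosts carry 1 H/ACA snoRNA each. SNHG8, with SNORA24, was at 42.3, 40.2, 40.2 and 42.1 CPM in ASO-Ctr, 43.9, 40.1, 38.3 and 43.6 CPM in sO-L1 and 102, 75.8, 75.3 and 70.04 CPM in ASO-L1, the lowest ASO-L1 library standing far above the highest of the other 8. EPB41L4A-AS1, with SNORA13, had 21.6, 22.2, 23.1 and 23.7 CPM in ASO-Ctr, 22.5, 23.6, 21.8 and 24.2 CPM in sO-L1 and 44.7, 34.00, 32.99 and 29.2 CPM in ASO-L1, again without overlap. SNHG15, with SNORA9, had 47.1, 45.1, 37.6 and 37.5 CPM in ASO-Ctr, 45.2, 46.7, 40.5 and 41.9 CPM in sO-L1 and 83.6, 59.97, 63.2 and 52.3 CPM in ASO-L1. ASO-Ctr libraries of SNHG15 fell into a higher pair, replicates 1 and 2, and a lower pair, replicates 3 and 4, and all ASO-L1 libraries were above both.

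**Figure D2:**
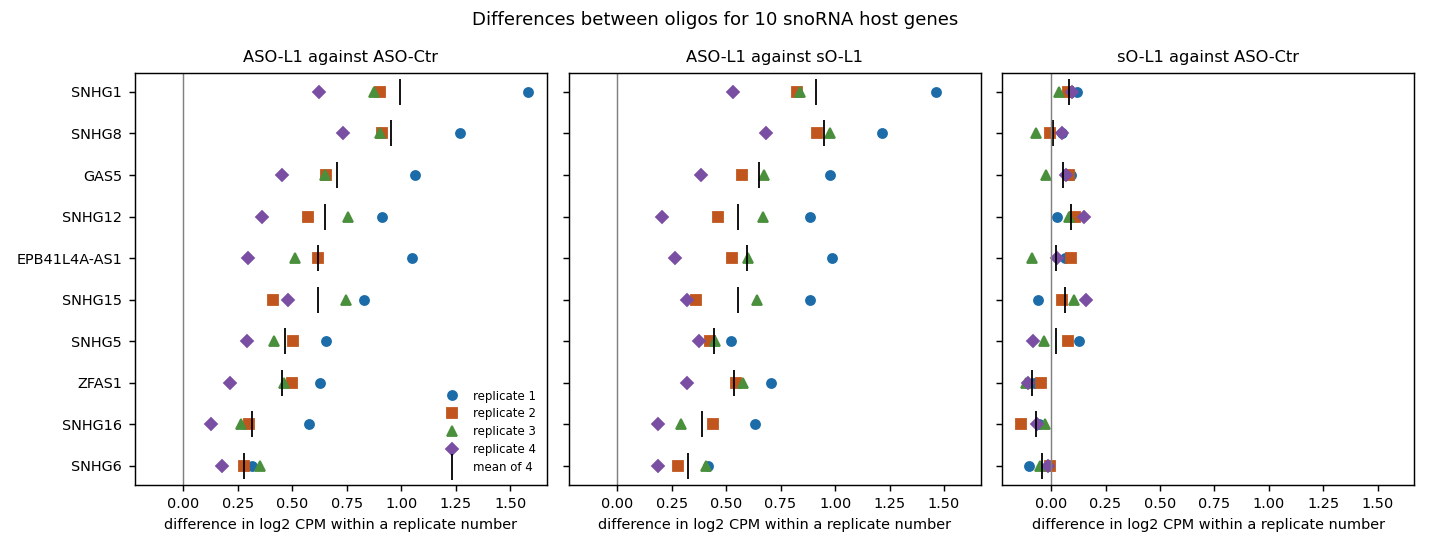
Differences in log2 CPM between libraries of the same replicate number, in 3 comparisons, for the 10 host genes ordered by their fitted change against ASO-Ctr. Points are replicate numbers and the black tick is the mean of 4. Every point lies above 0 in both comparisons with ASO-L1, and points lie on both sides of 0 for sO-L1 against ASO-Ctr.

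Replicate numbers ranked the hosts alike. Against ASO-Ctr, replicate 1 gave the largest difference for 9 of 10 hosts and replicate 4 the smallest for 9 of 10, and the mean difference over the hosts was 0.89, 0.56, 0.59 and 0.38 in log2 CPM in replicates 1 to 4. Among all 3668 genes called higher in that comparison, replicate 1 gave the largest difference in 63.3% and replicate 4 the smallest in 54.9%, so the same replicates led there too. Against sO-L1, replicate 1 was largest and replicate 4 smallest for all 10 hosts, beside 62.7% and 51.6% of the 3644 genes called higher. ASO-L1 replicate 1 had 27352147 reads, within the range of the other libraries, and a mitochondrial share of 5.59%, the lowest of the 12.

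Few neighbours in the order of changes differed beyond their spread. Of the 9 neighbouring pairs against ASO-Ctr, SNHG8 exceeded GAS5 by 0.25 ± 0.033 in log2 difference (SD, n = 4, higher in 4 of 4 replicate numbers) and ZFAS1 exceeded SNHG16 by 0.13 ± 0.075 (4 of 4). The other 7 neighbours were closer than the SD of their difference. SNHG1 exceeded SNHG6, the last in the order, by 1.27, 0.63, 0.52 and 0.45. Against sO-L1, SNHG8 exceeded SNHG6 by 0.63 ± 0.13 in 4 of 4.

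The comparison of sO-L1 with ASO-Ctr has no ASO-L1 library, although both groups also served in choosing the hosts. There 0 of 10 hosts were called by edgeR and 0 had an unadjusted p under 0.05, beside 0.29% of all genes called, 0.0695% higher and 0.22% lower. The adjusted p ran from 0.857 for ZFAS1 to 0.9999 for SNHG8, and the fitted log2 fold change ran from -0.088 for ZFAS1 to 0.094 for SNHG12, with a median of 0.020. The 95% intervals of the fold, from the fitted SE, spanned 0.860 (SNHG16) to 1.23 (SNHG1) over the 10 hosts, and all 10 pairs of ranges overlapped, where 1.24% of all genes lay apart and higher and 1.99% apart and lower. SNHG1 and SNHG12 were higher in sO-L1 in 4 of 4 replicate numbers, and ZFAS1, SNHG6 and SNHG16 were lower in 4 of 4.

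Noncoding hosts outside the chosen 10 were listed from general knowledge, 23 in all, of which 11 were matched in the table and 10 were tested. The list was made with earlier results of these data known, so it is not independent of them. Against ASO-Ctr 8 rose, 1 fell and 1 was not called, with a median log2 fold change of 0.69, and the counts were the same against sO-L1, with a median of 0.72. Over all genes 21.2% and 21.1% were called higher. For 8 of them the ASO-L1 range lay above both other ranges, beside 16.3% and 16% of all genes apart and higher. MEG8 had 0 reads in every library.

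C6orf48, now named SNHG32, rose from 52.8 ± 1.17 CPM in ASO-Ctr and 50.8 ± 1.56 CPM in sO-L1 to 133 ± 37.1 CPM in ASO-L1 (SD, n = 4), a log2 fold change against ASO-Ctr of 1.31 (SE 0.10, edgeR adjusted p = 6.57e-08) that exceeded the fitted value of every chosen host. LINC00338, now SNHG20, rose from 6.02 ± 0.306 to 13.4 ± 2.43 CPM, by 1.14 (edgeR adjusted p = 1.21e-06). SNHG10 had 5.52, 5.35, 5.51 and 5.27 CPM in ASO-Ctr and 17.3, 10.5, 11.6 and 8.23 CPM in ASO-L1, a rise of 1.10 (edgeR adjusted p = 1.39e-05). These 3 also rose against sO-L1, by 1.36, 1.23 and 0.93.

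SNHG7 rose by 0.90, from 25.8 ± 3.13 to 48.3 ± 9.27 CPM (edgeR adjusted p = 4.69e-07), and C17orf76-AS1, now SNHG29, by 0.72, from 176 ± 5.59 to 289.6 ± 37.5 CPM (edgeR adjusted p = 4.17e-08). SNHG11 rose by 0.66, SNHG3 by 0.44 and DANCR, the host also listed as SNHG13, by 0.43. The ASO-L1 libraries of DANCR lay close together, at 175, 176, 174 and 171 CPM, above 132, 122, 128 and 135 CPM in ASO-Ctr. SNHG9 was low, at 1.03 ± 0.227, 1.29 ± 0.225 and 1.46 ± 0.403 CPM in ASO-Ctr, sO-L1 and ASO-L1, and was not called (edgeR adjusted p = 0.0635 and 0.487).

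SNHG14 went the other way. It is the very long transcript of the imprinted Prader-Willi region, which carries tandem snoRNA clusters and runs antisense to UBE3A. Its level was 1156, 1315, 1164 and 1115 CPM in ASO-Ctr, 1091, 1273, 1152 and 1121 CPM in sO-L1 and 964, 1024, 926 and 938 CPM in ASO-L1, so that every ASO-L1 library was below every other library. Where the SNHG14 transcript runs over UBE3A, reads of the genes cannot be told apart if strand was not used in counting. The fitted log2 fold change was -0.30 (SE 0.035, edgeR adjusted p = 4.07e-06) against ASO-Ctr and -0.27 (adjusted p = 1.42e-05) against sO-L1, where 23.1% and 22.9% of all genes were called lower.

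**Figure D3:**
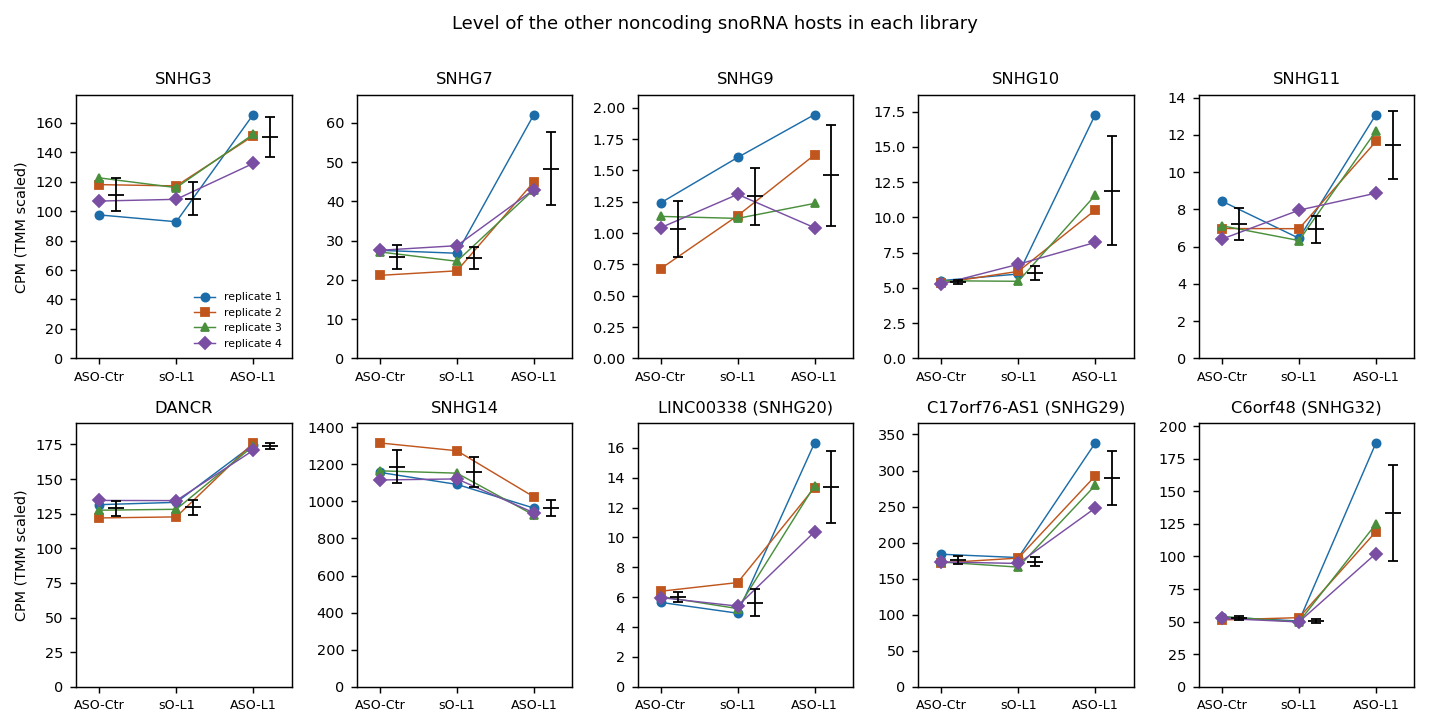
Level of the 10 tested noncoding hosts outside the chosen set, in CPM (TMM scaled, linear axis from 0), in each library by oligo group. Lines join libraries of the same replicate number, and black bars give the mean ± SD of 4 libraries. SNHG14 is lower in all 4 ASO-L1 libraries, and SNHG9 overlaps between the groups.

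The snoRNAs have rows of their own in the count table. RefSeq and GENCODE release 29 place 36 snoRNA entries inside the 10 hosts, 34 of them were matched in the table, and 18 of those 34 had 0 reads in all libraries, among them SNORD87 of SNHG6 and both snoRNAs of SNHG5. A poly(A) library recovers mature snoRNAs poorly, since they have no poly(A) tail, and the sources used here do not give how a read over a snoRNA and its host was counted. The 34 rows held 3740 reads over the 12 libraries, between 197 and 521 per library, and 8 rows were tested. Sequences of 3 of them are shown because they had the most reads among the snoRNAs of SNHG1, SNHG12 and ZFAS1. Capitals mark the C box TGATGA near the 5′ end and the D box CTGA near the 3′ end, where those exact letters occur. In SNORD99 only the D box matches exactly. The letters are those of the GENCODE transcripts, on chromosomes 11, 1 and 20.
SNORD30 of SNHG1: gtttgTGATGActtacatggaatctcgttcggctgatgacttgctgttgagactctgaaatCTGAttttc
SNORD99 of SNHG12: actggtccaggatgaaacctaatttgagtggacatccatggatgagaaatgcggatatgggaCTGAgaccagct
SNORD12 of ZFAS1: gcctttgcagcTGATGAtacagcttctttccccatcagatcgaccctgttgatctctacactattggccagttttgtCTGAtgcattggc

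Summed over the 34 rows, snoRNA entries were at 8.43, 8.31, 8.82 and 6.75 CPM in ASO-Ctr, 7.68, 9.27, 8.999 and 7.10 CPM in sO-L1 and 13.8, 9.89, 10.9 and 7.59 CPM in ASO-L1. The groups overlapped, and ASO-L1 replicate 4 lay among the control libraries. Within a replicate number the log2 difference between ASO-L1 and ASO-Ctr was 0.36 ± 0.24 for the snoRNA rows and 0.71 ± 0.27 for the summed hosts, and the host difference was the larger in 4 of 4. Against sO-L1 the differences were 0.33 ± 0.35 and 0.67 ± 0.25, again with the hosts larger in 4 of 4. The hosts were chosen for their rise and the snoRNA rows were not. That choice favours a larger host difference, so nothing is read from it. Single hosts varied in both comparisons: the host difference was the larger in 4 of 4 for ZFAS1, 2 of 4 for SNHG15 and 1 of 4 for SNHG12.

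Expressed per 1000 reads of the hosts, snoRNA rows had 8.16 ± 0.958 reads in ASO-Ctr, 8.16 ± 1.26 in sO-L1 and 6.40 ± 0.601 in ASO-L1 (SD, n = 4). No test is given, because the hosts in the denominator were chosen for their rise. The hosts also weigh unequally in this ratio: ZFAS1 held 1408 of the 3740 snoRNA reads, while SNHG5 held 0 and still counts in the denominator. ZFAS1, which had the most snoRNA reads, went from 49.7 ± 5.30 and 52.3 ± 3.35 to 39.5 ± 3.38 snoRNA reads per 1000 host reads. The ratio of SNHG12 did not follow this, at 25.3 ± 7.32, 23.5 ± 7.54 and 28.6 ± 3.50.

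**Figure D4:**
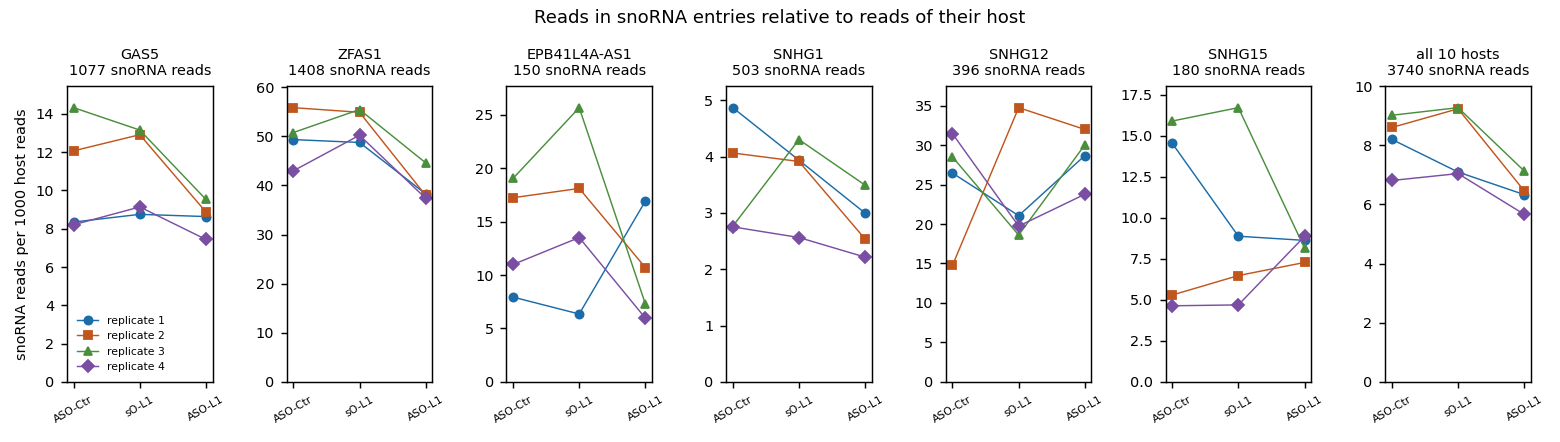
Reads in snoRNA rows per 1000 reads of their host (linear axis from 0) in each library, for the 6 hosts with at least 100 snoRNA reads over the 12 libraries and for the 10 hosts summed. Lines join libraries of the same replicate number. In the sum and in ZFAS1, ASO-L1 is below ASO-Ctr and sO-L1 in each replicate number, whereas the other single hosts cross.

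Of the 8 snoRNA rows tested, 2 were called higher, a share near the 21.2% of all genes called higher against ASO-Ctr. SNORD30 had 1.33, 1.10, 0.756 and 0.725 CPM in ASO-Ctr, 1.20, 1.12, 1.21 and 0.720 CPM in sO-L1 and 2.52, 1.31, 1.75 and 0.898 CPM in ASO-L1, a log2 fold change of 0.68 against ASO-Ctr (edgeR adjusted p = 0.0168) and 0.56 against sO-L1 (adjusted p = 0.0389). SNORD99 had 0.813, 0.406, 0.850 and 0.985 CPM in ASO-Ctr, 0.659, 1.03, 0.588 and 0.687 CPM in sO-L1 and 1.66, 1.29, 1.51 and 0.956 CPM in ASO-L1, with 0.83 (edgeR adjusted p = 0.029) and 0.80 (adjusted p = 0.0293). Both overlapped between the groups, and both calls rest on few reads: against ASO-Ctr each was lost in 6 of 22 alternative settings, with SNORD99 at 0.50 without ASO-Ctr replicate 2 (adjusted p = 0.178), and against sO-L1 SNORD30 was lost in 11 (0.36 without replicate 1, adjusted p = 0.256) and SNORD99 in 9. SNORD78 of GAS5, at 2.22 ± 0.585 CPM in ASO-Ctr and 2.94 ± 0.681 CPM in ASO-L1, was not called (log2 fold change 0.40, adjusted p = 0.0656), nor was SNORD12 (0.13, adjusted p = 0.565).

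Neighbouring genes start close to some hosts on the other strand. In GENCODE release 29, SLC3A2, which encodes a subunit of cystine and neutral amino acid transporters, starts 188 bases from SNHG1 without overlapping it. SLC3A2 had 254, 227, 239 and 247 CPM in ASO-Ctr, 271, 247, 255 and 251 CPM in sO-L1 and 651, 442, 485 and 408 CPM in ASO-L1, the ASO-L1 libraries all above the rest. It rose by 1.02 (SE 0.072, edgeR adjusted p = 2.67e-08) against ASO-Ctr and by 0.94 against sO-L1 (adjusted p = 4.72e-08), beside 1.01 and 0.93 for SNHG1. ZNFX1, an antiviral helicase gene starting 248 bases from ZFAS1 and overlapping it, rose from 27.6 ± 1.64 and 25.1 ± 1.68 to 39.1 ± 3.50 CPM, by 0.49 (edgeR adjusted p = 2.98e-05) and 0.63 (adjusted p = 2.28e-06). ZBTB37, starting 800 bases from GAS5, was at 4.38 ± 1.09 CPM in ASO-Ctr and 3.98 ± 0.560 CPM in ASO-L1 and was not called (adjusted p = 0.565).

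The libraries were stranded, but the sources used here do not state the strand setting of the counting, so reads of overlapping genes on opposite strands cannot be told apart. For GAS5, ZFAS1, EPB41L4A-AS1, SNHG6, SNHG12 and SNHG16 such a partner exists. Of the partners described here, ZNFX1 was the one called higher. EPB41L4A was at 5.02 ± 0.786 CPM in ASO-Ctr and 4.24 ± 0.863 CPM in ASO-L1 (log2 fold change -0.24, edgeR adjusted p = 0.0823) and TRNAU1AP, opposite SNHG12, at 24.9 ± 1.79 and 22.4 ± 3.10 CPM (-0.15, adjusted p = 0.0909). GAS5-AS1, at 0.773 ± 0.275 CPM in ASO-Ctr and 0.957 ± 0.255 CPM in ASO-L1, was not called. MCMDC2, opposite SNHG6, was at 1.25 ± 0.132, 1.53 ± 0.481 and 0.980 ± 0.153 CPM and was called lower against sO-L1 (-0.65, edgeR adjusted p = 0.0189), with -0.34 against ASO-Ctr (adjusted p = 0.234). The MCMDC2 call was lost in 5 of 22 alternative settings, with -0.40 without sO-L1 replicate 2 (adjusted p = 0.176).

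Protein-coding genes also host snoRNAs. Of 61 coding hosts tested, 42 rose, 4 fell and 15 were not called against ASO-Ctr, with a median log2 fold change of 0.19, beside 21.2% of all genes called higher and 23.1% lower. Against sO-L1 43 rose and 4 fell, beside 21.1% and 22.9%. HSPA9, a mitochondrial chaperone, rose from 976 ± 40.03 to 1358 ± 101 CPM, by 0.48 (edgeR adjusted p = 2.56e-07), and ATP5B, a subunit of ATP synthase, by 0.36 (adjusted p = 8.84e-07). Those that fell were RNF149 (-0.46), NAP1L4 (-0.21) and the ribosomal protein genes RPL12 (-0.27) and RPL3 (-0.21). RPL12 and RPL3 were at -0.17 and -0.12 against ASO-Ctr without ASO-L1 replicate 1, and both have processed pseudogenes that could share reads.

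Proteins that assemble with snoRNAs or act on the particles numbered 19 tested. Against ASO-Ctr 9 rose, 1 fell and 9 were not called (median 0.14), beside 21.2% of all genes called higher and 23.1% lower, and 10 rose and 1 fell against sO-L1. NOP56 and NOP58, core proteins of box C/D particles that are coding hosts themselves, rose by 0.33 (edgeR adjusted p = 4.23e-06) and 0.33 (adjusted p = 5.01e-06), NOP56 from 372 ± 18.1 to 468 ± 26.99 CPM. DKC1, the pseudouridine synthase of H/ACA particles, rose by 0.27 and TAF9 by 0.34. SHQ1, an assembly factor of H/ACA particles, was lower, with a log2 fold change of -0.29 (adjusted p = 0.0014). Without replicate 3 the count called against sO-L1 was 7 in place of 11.

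Factors of nonsense-mediated decay numbered 25 tested. Against ASO-Ctr 10 rose, 6 fell and 9 were not called (median 0.064), and 11 rose and 5 fell against sO-L1. Over all genes 21.2% and 21.1% were called higher and 23.1% and 22.9% lower, so the count that fell was near the share over all genes. MAGOH, a subunit of the exon junction complex, rose by 0.36 (edgeR adjusted p = 4.80e-05) and DCP1A, a decapping cofactor, by 0.53 (adjusted p = 5.08e-05). DCP2, the decapping enzyme, fell from 237 ± 10.6 to 191 ± 5.67 CPM (-0.31, adjusted p = 2.46e-05), and the endonuclease gene SMG6 fell by 0.41 (adjusted p = 5.15e-05). Together with NBAS, DCP2 and SMG6, GSPT2 (-0.37) and SMG9 (-0.38) made up the 5 called lower against sO-L1, and SMG9 was not called there without the replicate term. UPF1, the central helicase, named here after its values were seen, was at 149 ± 2.17, 142 ± 5.65 and 152 ± 7.81 CPM in ASO-Ctr, sO-L1 and ASO-L1, with adjusted p of 0.611 and 0.112.

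NBAS, a very long gene whose product takes part in decay and in Golgi transport, was the one gene of these lists called for sO-L1 against ASO-Ctr. It was at 50.4 ± 3.28 CPM in ASO-Ctr, 35.9 ± 1.53 CPM in sO-L1 and 26.3 ± 5.33 CPM in ASO-L1, and the ranges did not overlap. The log2 fold change of sO-L1 was -0.48 (edgeR adjusted p = 0.0295), a call lost in 14 of 22 alternative settings. ASO-L1 was lower still, at -0.94 against ASO-Ctr (adjusted p = 7.01e-07) and -0.46 against sO-L1 (adjusted p = 8.20e-04), and the latter was -0.29 without replicate 1 of every group.

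Protein-coding mRNAs known as targets of the same decay pathway numbered 24 tested. Against ASO-Ctr 14 rose and 3 fell, the other 7 being without a call (median 0.21), and 12 rose and 4 fell against sO-L1, beside 21.2% higher and 23.1% lower and 21.1% higher and 22.9% lower of all genes. The genes with the smallest adjusted p are also known to respond to stress. CDKN1A and GADD45A, textbook targets of p53, rose by 2.39 (edgeR adjusted p = 4.32e-09) and 1.94 (adjusted p = 3.70e-08). DDIT3 and ATF3, transcription factors of the integrated stress response, rose by 2.57 (adjusted p = 4.82e-09) and 1.83 (adjusted p = 1.63e-08). The neuronal splicing regulator PTBP2 was lower (-0.32, adjusted p = 4.06e-05). SRSF7 (-0.12) and SRSF11 (-0.10), splicing factors with decay-prone isoforms, were also called lower (SRSF7 was at -0.063 without ASO-L1 replicate 1), and SRSF2 against sO-L1 (-0.10), but against ASO-Ctr SRSF7 and SRSF11 lost the call in 15 of 22 alternative settings. Against sO-L1 SRSF11 (-0.17) kept it in all 22, SRSF7 (-0.14, or -0.079 without replicate 1) lost it in 4 and SRSF2 in 17.

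Among mRNAs that start with a terminal pyrimidine tract (TOP mRNAs), 24 of 32 rose, 2 fell and 6 were not called against ASO-Ctr (median 0.17), beside 21.2% of all genes called higher and 23.1% lower. Against sO-L1 25 rose and 2 fell, beside 21.1% and 22.9%. VIM, encoding vimentin, rose from 122 ± 21.00 to 415 ± 74.4 CPM, by 1.78 (edgeR adjusted p = 9.87e-09). RPLP1 rose by 0.33, GNB2L1, which encodes RACK1, by 0.29 and the elongation factor EEF2 by 0.23, and RPL12 and RPL3 were the 2 that fell. For sO-L1 against ASO-Ctr 0 genes of the lists of coding hosts, snoRNA-binding proteins, decay-sensitive mRNAs and TOP mRNAs were called by edgeR, and 1, 0, 4 and 1 had an unadjusted p under 0.05.

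**Figure D5:**
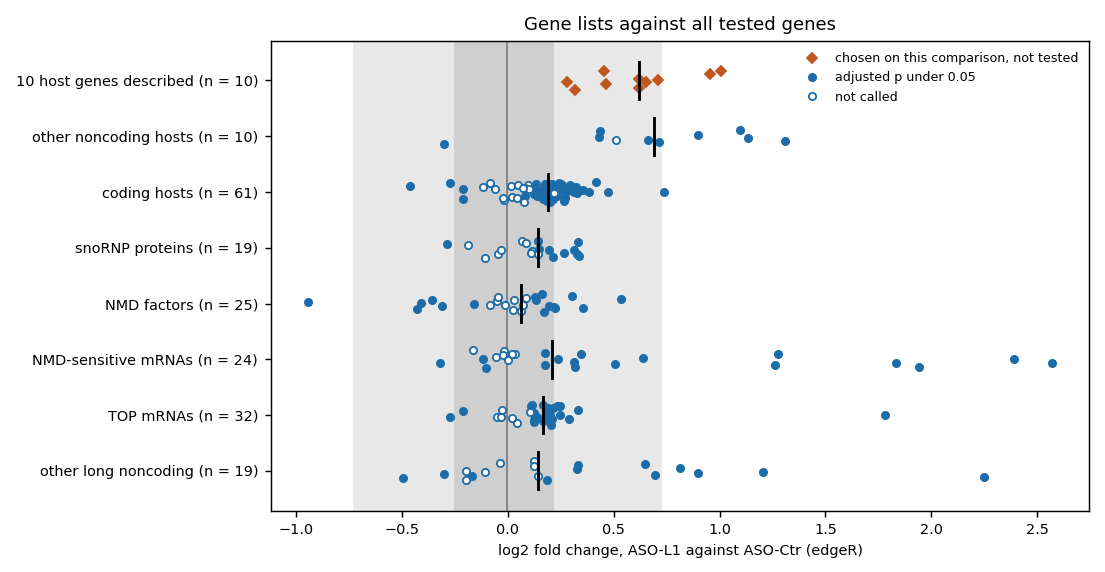
Fitted log2 fold change of ASO-L1 against ASO-Ctr for each gene of 8 lists. The dark and light bands hold the middle 50% and 90% of the 17264 genes tested, and black bars are list medians. The medians of the 10 hosts (0.62) and of the other noncoding hosts (0.69) lie to the right of those of the 6 other lists (0.064 to 0.21). The 10 hosts were chosen for their rise in these libraries, so nothing is read from the place of their median. NMD stands for nonsense-mediated decay.

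Genes whose levels ran most like the hosts were found by Pearson correlation of log2 CPM with the mean of the 10 hosts over the 12 libraries, among 9724 expressed genes outside the host lists. Libraries of the same replicate number deviated together over all genes, and all 10 nearest genes were called higher in ASO-L1 against both other groups, so the likeness is a description. The nearest was CEBPG (r = 0.996), a partner of ATF4 in the integrated stress response, followed by SLC3A2 (0.992), CSNK1A1 (0.990), GS1-251I9.4, LMNA, MORC4, THAP9-AS1, MDM2, FLNC and GADD45A (0.987). CEBPG had 87.97, 86.9, 87.1 and 90.2 CPM in ASO-Ctr, 92.5, 85.3, 89.3 and 91.7 CPM in sO-L1 and 199.8, 138, 140.2 and 120.5 CPM in ASO-L1. In the same libraries MDM2, the p53-induced ubiquitin ligase, went from 85.8 ± 3.52 to 178 ± 56.4 CPM. The hosts themselves correlated with the mean of the other 9 at 0.87 (SNHG16) to 0.99 (SNHG1). In each of the 10 nearest genes, which were picked by this correlation, ASO-L1 replicate 1 was the highest and replicate 4 the lowest ASO-L1 library, and in SNHG5 the lowest was replicate 2.

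The authors' deposited table for ASO-L1 against sO-L1 lists 20856 genes, of which 6846 have an adjusted p under 0.05 and 3354 of these are positive. It holds all 10 hosts with positive log2 fold changes, from 0.324 for SNHG6 to 0.952 for SNHG8.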

How the data were processed

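Stranded poly(A) RNA-seq libraries of H9 cells were analysed, 12 in all. The submitters' processing notes name featureCounts (Subread 1.5.0), TopHat2 2.0.13, Trim Galore 0.4.0 and the build hg19. The annotation, the strand setting and the treatment of reads over several features are not given in the sources used here. The deposited counts are raw reads per gene, from which duplicates were removed per the labels, and this compresses abundant genes. The authors also deposited log2 values, normalized and batch corrected per the labels, and a table of log2 fold changes with p-values and adjusted p-values, average expression, and a moderated statistic and log odds (scores of the authors, not used).

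Tests used edgeR 4.0.16 under R 4.3.3 (quasi-likelihood F-tests after TMM scaling; filterByExpr at a minimum count of 10). The fit held the 12 libraries, with terms for group and for replicate number. P-values were Benjamini-Hochberg adjusted over 17264 genes and called under 0.05. CPM are TMM scaled, and differences within a replicate number use log2 CPM with a prior count of 2. Replicate numbers were taken as pairing libraries: over 10549 genes averaging 200 or more reads, deviations from group means correlated at 0.214 to 0.726 in all 12 same-number pairs (threshold 0.1), with a median of -0.224 for other pairs. DESeq2 1.42.0 and limma 3.58.1 on the authors' log2 table, other scalings, no filter, no replicate term and leaving out replicates or libraries were alternatives. On simulated counts for ASO-L1 against ASO-Ctr (17264 genes) the test recovered 98% of genes changed by 0.5 and 100% of those changed by 1 on the log2 scale, with 3.88% of calls false. The simulated counts had a common spread for all genes, no replicate effect and few changed genes. These rates may therefore not hold for the real libraries.

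The hosts, gene lists and tests were chosen with earlier results of these data known. Named genes are the hosts and other noncoding hosts, up to 4 called genes with the smallest adjusted p per list and comparison, all called genes of a direction with at most 5, genes starting within 2 kb on the other strand, and the 10 genes most correlated with the hosts. Genes of the table overlapping a host on the other strand are given too, except 1 that is not reported here. Gene positions come from GENCODE release 29 and RefSeq, whose build differs from that of the counts; they serve for neighbourhood and sequence only. Promoter sequences of SNHG6, SNHG15, SNHG16 and EPB41L4A-AS1 are not shown.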

Additional observations from a re-analysis of the deposited data

Results flagged for a closer look

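In 60 groups of 4 libraries, the levels of the 20 noncoding hosts in 3 oligo groups, the gap between the highest or lowest library and its nearest neighbour was compared with the range of the group, at Dixon's critical value of 0.829. Chance alone marks about 1 group in 20, and 4 of 60 were marked. SNHG5 in ASO-L1 replicate 1 was at 374 CPM, with the other 3 libraries at 290.4 to 304 CPM. SNHG7 in ASO-L1 replicate 1 was at 62.1 CPM, with the others at 43.0 to 45.0 CPM. SNHG7 in ASO-Ctr replicate 2 was at 21.1 CPM, below the others at 27.1 to 27.5 CPM. C17orf76-AS1 in ASO-Ctr replicate 1 was at 184 CPM, above the others at 172 to 173 CPM.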

How the results depend on the processing

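Against ASO-Ctr and against sO-L1, the 10 hosts were called higher in all 22 alternative settings, with medians of 0.51 to 0.70 and 0.46 to 0.66 on the log2 scale. The fit without the replicate block gave medians of 0.63 and 0.57 and the same 10 calls. Since the hosts were chosen for their rise in these same libraries, their calls in refits of the same counts carry no test. The 8 other noncoding hosts that rose, and SNHG14, which fell, kept their calls in all 22 settings. SNHG9 was called against ASO-Ctr in 3 settings, without replicate 4, without ASO-Ctr replicate 3 and without ASO-L1 replicate 4. For sO-L1 against ASO-Ctr, 0 of 10 hosts were called in any setting. The number of genes called there was 50, against 17 without the replicate block, 95 with DESeq2, 141 without the filter and 137 with limma on the authors' log2 table, and it ran from 10 (without replicate 2 or without replicate 3) to 410 (without ASO-L1 replicate 1) when libraries were left out. Of decay factors, 1 was called there, 0 without the replicate block and 0 with limma, and 0 to 2 with libraries left out. Coding hosts and decay-sensitive mRNAs went from 0 to at most 1 call each. snoRNA-binding proteins called against sO-L1 ran from 7 to 14 around 11. For ASO-L1 against ASO-Ctr with libraries left out, all genes called ran from 5797 to 7849 around 7652. Coding hosts called ran from 38 to 52 around 46 there, and TOP mRNAs from 18 to 28 around 26. The cause of these changes was not tested. Over 243 pairs of a named gene and a comparison, 5221 of 5346 values kept their side of the threshold, 108 lost a call, 17 gained one and 0 changed sign while called. Depth limits the snoRNA rows most, with 197 to 521 reads per library.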

Other observations

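Long noncoding RNAs that host no snoRNA made up a further list. Of 19 tested, 9 rose, 3 fell and 7 were not called for ASO-L1 against ASO-Ctr, with a median log2 fold change of 0.14, and 8 rose and 6 fell against sO-L1. Over all genes 21.2% and 21.1% were called higher and 23.1% and 22.9% lower. NEAT1 is the gene of the scaffold RNA of paraspeckles, and counts per gene do not separate its isoforms. It rose from 29.1 ± 4.35 CPM in ASO-Ctr and 34.5 ± 2.03 CPM in sO-L1 to 142 ± 51.9 CPM in ASO-L1 (SD, n = 4), by 2.25 (edgeR adjusted p = 1.66e-09). MALAT1, an abundant RNA of nuclear speckles, rose from 136 ± 12.03 to 317 ± 71.8 CPM, by 1.21 (adjusted p = 1.82e-06), and GABPB1-AS1 by 0.90 (adjusted p = 8.39e-06). MIAT fell from 74.2 ± 12.1 and 88.5 ± 17.7 CPM to 52.3 ± 4.25 CPM, with log2 fold changes of -0.49 against ASO-Ctr and -0.74 against sO-L1 (edgeR adjusted p = 9.68e-05 and 1.43e-06). LINC00678 (-0.30, adjusted p = 2.45e-04) and OIP5-AS1 (-0.17, adjusted p = 0.00369) were the others that fell against ASO-Ctr, and OIP5-AS1 was not called without replicate 3. For sO-L1 against ASO-Ctr, 0 of these 19 were called by edgeR and 6 had an unadjusted p under 0.05. NEAT1, MALAT1 and MIAT, at 0.26, 0.29 and 0.25, were each called higher in sO-L1 in 3 of 22 alternative settings: with no filter on low counts, without replicate 1 and without ASO-L1 replicate 1.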
